A study of Capra hircus with 20 samples.

Results

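The genes described here are 38 genes of the presynaptic vesicle and of transmitter release, chosen by their symbols and matched to the 21071 genes of the goat table by gene ID. All 38 were found, and all 38 passed the filter on low values. They fall into 6 roles. There are 8 SNAREs and proteins that recycle or protect them, 7 synaptotagmins and related proteins, and 7 proteins of the vesicle membrane. The others are 8 small GTPases and active zone proteins, 4 priming and clamping proteins, and 4 proteins of endocytosis and acidification. The synaptotagmins and related proteins are called calcium sensors here, although SYT11 does not bind calcium. The hypothalamus of 20 healthy female Jining grey goats was sequenced, with 5 goats at 1 day (D1), 5 at 60 days (M2), 5 at 120 days (M4) and 5 at 180 days (M6) of age, each giving 1 strand-specific library from which rRNA had been removed. No goat was treated, all were kept under the same feeding, and the study looked for long non-coding RNAs that go with the development of the hypothalamus and with sexual maturity. Values are FPKM, fragments relative to the exon length of the gene and to how many reads of the library were mapped, so levels of different genes can be compared.

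A nerve terminal stores transmitter in vesicles that carry a proton pump, a transporter and membrane proteins such as the synaptic vesicle glycoproteins and synaptogyrins. Vesicles are tethered at the active zone by small GTPases of the RAB3 family and large scaffolds, primed by UNC13 proteins, and fused when synaptotagmins bind calcium and the SNAREs VAMP, SNAP25 and syntaxin zip together. The ATPase NSF with its adaptors NAPA and NAPB takes the SNAREs apart, and dynamin, amphiphysin and synaptojanin recover the membrane. In the hypothalamus the same machinery serves fast synapses and, in part, the release of neuropeptides.

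Every comparison between stages below has to be read beside a few libraries that stood apart. The neuron markers (10 of 10 genes in the table) had a mean log2(FPKM + 0.1) of 2.40 in M6 replicate 3 and 3.58 in M2 replicate 1, and of 4.74 to 5.78 in the other 18 libraries. No neuron marker was at 0 in any library. The myelin markers (9 of 9) had their highest level, 8.37, in M6 replicate 3, but D1 replicates 5, 3 and 2 were close, at 8.29, 8.26 and 8.05. Their lowest level was 3.91, in M4 replicate 1. M6 replicate 4, D1 replicate 4 and M4 replicate 2 were also low, at 4.73, 4.76 and 5.05. SLC17A7, the vesicular glutamate transporter typical of cortex, was at 68.0 FPKM in M4 replicate 1 and at most 1.07 FPKM in every other library, and DRD1, a dopamine receptor typical of striatum, was at 151, 57.2 and 56.4 FPKM in D1 replicate 4, M2 replicate 4 and M6 replicate 2. In M4 replicate 2 TCF7L2, a transcription factor typical of thalamus, was at 86.3 FPKM and SLC17A6, the glutamate transporter of thalamus and hypothalamus, at 231 FPKM, and they reached at most 32.6 and 109 FPKM elsewhere. The hypothalamic markers (16 of 16) varied strongly between goats of one age. The mean log2 level of this list ran from -1.76 to 2.36 at D1, from -1.30 to 0.23 at M2, from -2.33 to 0.26 at M4 and from -1.57 to 2.51 at M6. OXT, the oxytocin gene, was listed at 0 in 6 libraries and reached 413 FPKM in M6 replicate 4, and the transcription factor SIM1 was under 1 FPKM in 13 libraries. The part of these differences in the results below was not tested, except where values without the libraries are given.

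None of the 38 genes was differentially expressed in any stage comparison, where a call needed a log2 fold change of 1 or more in either direction and an adjusted p (limma, Benjamini-Hochberg) under 0.05. These thresholds called 0% of all 16771 genes tested in M2 vs. D1, 0.0537% in M4 vs. D1 and 0.00596% in M6 vs. D1, with 0% each in M4 vs. M2, M6 vs. M2 and M6 vs. M4. When the mean of M2, M4 and M6 was compared with D1 (later vs. D1), 0 of the 38 and 0.0596% of all genes were called, and by the adjusted p alone 0 of the 38 and 0.0775% of all genes. The smallest adjusted p of any member was 0.208, for SYT2 in M2 vs. D1. At an unadjusted p under 0.05, 2 members stood out in M2 vs. D1 (15.6% of all genes did), 0 in M4 vs. D1 (8.71%) and 2 in M6 vs. D1 (7.41%). M4 vs. M2 had 1 such member (8.68%), M6 vs. M2 had 3 (6.14%), and the count was 12 in M6 vs. M4 (6.87%) and 0 in later vs. D1 (11.7%). M6 vs. M4 was thus the comparison in which the members' share lay farthest above that of all genes, and the share there depended on single libraries, as described further on.

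**Figure D1:**
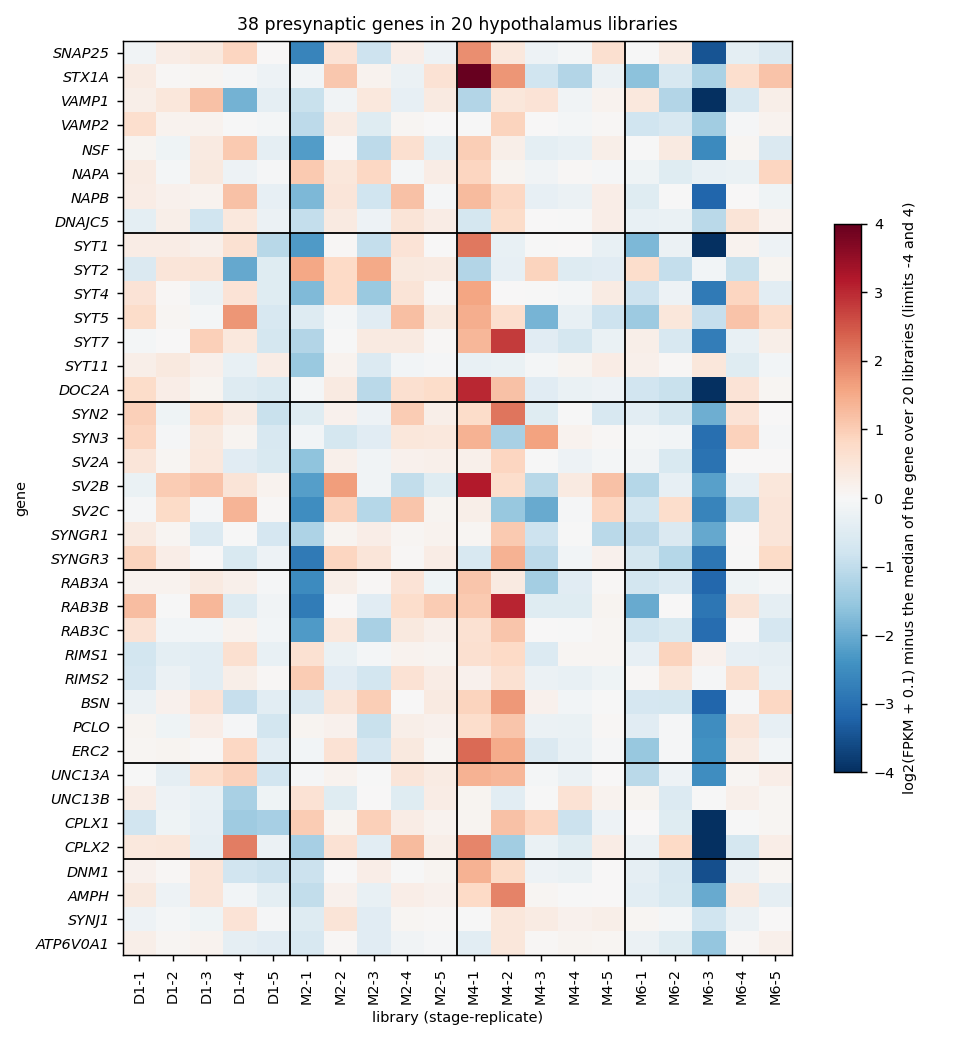
Level of the 38 presynaptic genes (rows, grouped by role with horizontal lines) in the 20 libraries (columns, stage and replicate, grouped by stage with vertical lines), as log2(FPKM + 0.1) minus the median of the gene over the libraries, with colours limited to -4 and 4. Columns M6-3 and M2-1 are blue for most genes and columns M4-1 and M4-2 red, while no stage as a whole is uniformly red or blue.

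Among the SNAREs, SNAP25, the plasma membrane SNARE of the terminal (chromosome 13, 3278034 to 3365521, build ARS1.2, a protein-coding gene as are all 38), was the most abundant of all members with a mean of 484 FPKM. It was at 388, 522, 562, 770 and 431 FPKM in the D1 libraries and at 68.1, 625, 239, 515 and 373 FPKM at M2. At M4 it was at 1562, 571, 370, 403 and 662 FPKM, and at M6 at 425, 535, 39.2, 327 and 288 FPKM. The 4 stages overlapped, with the lowest values in M6 replicate 3 and M2 replicate 1 and the highest in M4 replicate 1. Later vs. D1 gave a log2 fold change of -0.57 (95% interval -1.64 to 0.50, adjusted p = 0.688 from limma).

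VAMP2, the main vesicle SNARE of the forebrain (chromosome 19, 27530891 to 27534714), varied less. Its D1 libraries held 74.1, 51.5, 51.7, 45.7 and 44.3 FPKM and its M2 libraries 22.5, 58.8, 32.9, 48.7 and 46.6 FPKM. The M4 libraries held 46.4, 85.5, 46.5, 43.7 and 47.8 FPKM, and the M6 libraries 26.5, 30.0, 17.8, 44.7 and 51.7 FPKM. Of the M6 libraries 3 lay below all D1 libraries and 2 lay among them. The mean was 53.5 ± 12 FPKM (SD, n = 5) at D1 and 34.1 ± 13.8 at M6. M6 vs. D1 gave a log2 fold change of -0.72 (95% interval -1.32 to -0.12, adjusted p = 0.630 from limma), which did not pass the correction over all genes.

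The other members of this role were given by stage means. VAMP1, the vesicle SNARE more typical of brainstem and spinal cord, was at 20.7 ± 13 FPKM (SD, n = 5) at D1 and 12.8 ± 9.52 at M6, with 0.375 FPKM in M6 replicate 3. STX1A, a plasma membrane syntaxin, was under 2 FPKM in 18 libraries, and its M4 mean of 4.99 ± 8.78 FPKM came from M4 replicate 1, at 20.6 FPKM. The means of NSF lay between 92.2 and 141 FPKM and those of NAPB, the neuronal adaptor, between 38.1 and 71.8 FPKM. NAPA, the adaptor found in most cell types, stayed within 2.78 and 8.36 FPKM over all 20 libraries. DNAJC5, a vesicle chaperone of SNAP25, had stage means of 18.3 to 21.3 FPKM.

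Of the calcium sensors, SYT2, the fast sensor of brainstem and spinal synapses (chromosome 16, 78537865 to 78617617), came closest to a stage difference. It was low throughout, at 1.13, 2.47, 2.50, 0.348 and 1.21 FPKM at D1 and at 5.33, 3.12, 5.15, 2.33 and 2.28 FPKM at M2. At M4 it was at 0.720, 1.35, 3.33, 1.19 and 1.24 FPKM, and at M6 at 2.86, 0.854, 1.62, 0.893 and 1.86 FPKM. The M2 libraries were higher than most others, but 2 of them lay below the highest D1 library, and the highest M2 value belonged to M2 replicate 1, the library of low neuron markers. M2 was above D1 by a log2 fold change of 1.36 (standard error 0.48, adjusted p = 0.208 from limma). Without that library it was 1.2 (standard error 0.51, adjusted p = 0.522), and with library quality weights it was 0.71 (standard error 0.39, adjusted p = 0.343). The corresponding values with all libraries were -1.25 in M4 vs. M2 (adjusted p = 0.519) and -1.16 in M6 vs. M2 (adjusted p = 0.746), each with the same standard error. These 3 comparisons share the M2 libraries.

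SYT11, a synaptotagmin that does not bind calcium and is also found in glia (chromosome 3, 105225496 to 105244747), was the most abundant of this role with a mean of 283 FPKM. The D1 libraries held 338, 373, 327, 230 and 349 FPKM and the M2 libraries 102, 316, 195, 263 and 274 FPKM. The M4 libraries held 234, 237, 268, 306 and 355 FPKM and the M6 libraries 331, 297, 389, 204 and 265 FPKM. M6 replicate 3, the lowest of the 20 for SNAP25, was the highest for SYT11, while M2 replicate 1 was low for both and the lowest for SYT11. In M2 vs. D1 its log2 fold change of -0.57 had a standard error of 0.27 (adjusted p = 0.318 from limma).

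SYT1, the fast sensor of forebrain synapses, had a mean of 148 ± 52.6 FPKM (SD, n = 5) at D1 and 111 ± 64.1 at M2. The mean was 209 ± 202 FPKM for M4 and 83.3 ± 57.4 for M6. The M4 SD came from replicate 1, at 569 FPKM against 106 to 133 FPKM in the other M4 libraries. SYT7, a slow sensor of asynchronous release, was at 17.1 FPKM in M4 replicate 2 and at 0.266 to 6.18 FPKM elsewhere. SYT4, a synaptotagmin of dense-core vesicles, had stage means of 29.4 to 50.6 FPKM, and SYT5 of 7.01 to 9.11 FPKM. DOC2A, a sensor of spontaneous release, reached 27.1 FPKM in M4 replicate 1 and was listed at 0 in M6 replicate 3.

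Among the vesicle membrane proteins all 7 had a negative log2 fold change in later vs. D1, between -0.90 and -0.15, and none passed the test (smallest adjusted p in any comparison 0.515 from limma). SV2C, the SV2 glycoprotein prominent in basal ganglia (chromosome 10, 93649456 to 93866174), had the largest of these differences. It was at 16.2, 28.4, 16.4, 43.5 and 17.2 FPKM at D1 and at 2.91, 32.1, 7.62, 36.0 and 18.3 FPKM at M2. At M4 it was at 19.6, 5.82, 4.07, 16.4 and 30.5 FPKM, and at M6 at 10.1, 27.3, 2.60, 7.58 and 23.4 FPKM. All D1 libraries were above 16 FPKM, while each later stage held 2 or 3 libraries under 11 FPKM and others as high as D1. D1 replicate 4, M2 replicate 4 and M6 replicate 2, the libraries with high DRD1, were the highest of their stages. Its later vs. D1 interval ran from -2.08 to 0.28 (adjusted p = 0.549 from limma).

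SV2A, the SV2 form found at nearly all synapses, had means of 18.2 ± 6.08 FPKM (SD, n = 5) at D1, 16.3 ± 6.24 for M2, 20.4 ± 6.88 for M4 and 13 ± 6.59 for M6. SV2B, the form of forebrain glutamate neurons, was at 68.0 FPKM in M4 replicate 1, the library with SLC17A7, against 3.42 to 17.0 FPKM in the other M4 libraries. Its M6 vs. M4 log2 fold change was -1.56 (standard error 0.68, adjusted p = 0.7 from limma). The synapsins SYN2 and SYN3, which hold vesicles in reserve, had stage means of 4.89 to 10.1 FPKM and 1.90 to 3.29 FPKM. The synaptogyrins SYNGR1 and SYNGR3 had stage means of 11.4 to 15.5 FPKM and 11.7 to 17.4 FPKM, with SYNGR3 at 2.02 FPKM in M2 replicate 1 and 1.94 FPKM in M6 replicate 3.

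**Figure D2:**
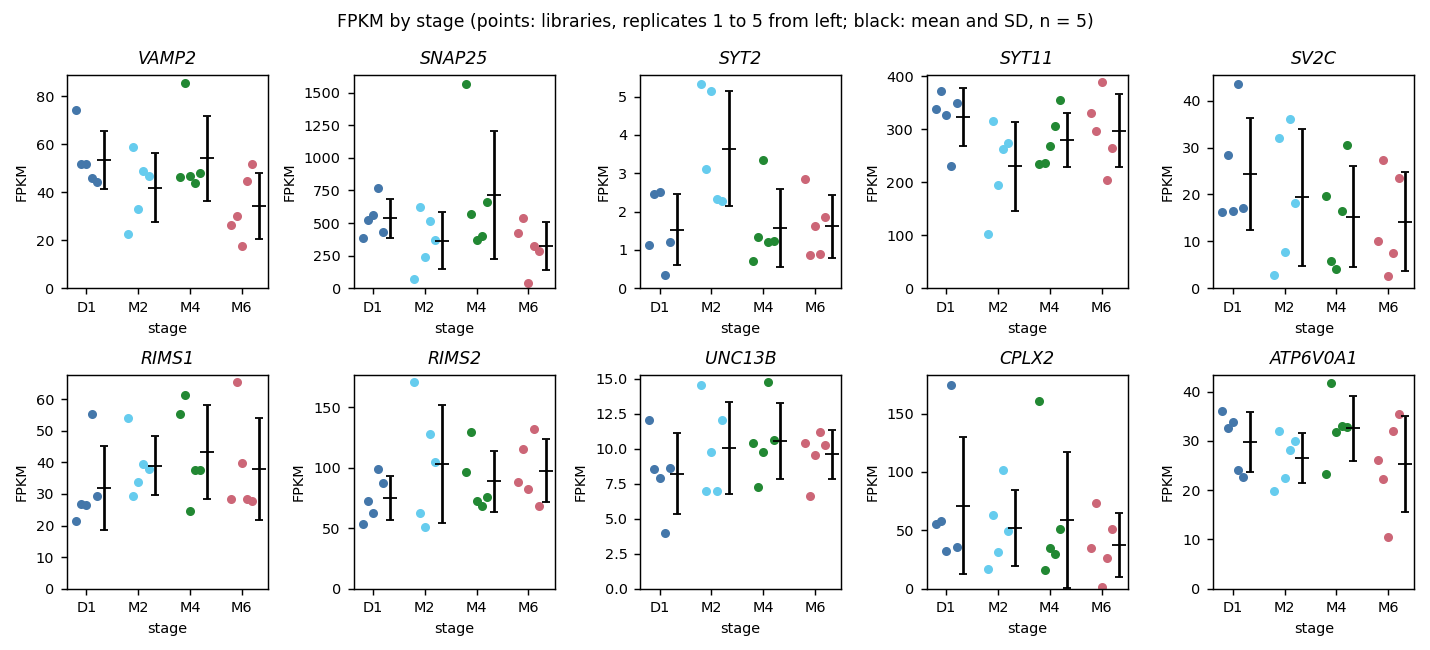
FPKM by stage of 10 members, the one with the smallest p in later vs. D1 and the most abundant one of each role, with a point per library in the order of replicates 1 to 5 and the mean and SD (n = 5) in black. The stages overlap in every panel, and the M2 libraries of SYT2 have the highest stage mean of that gene, 3.64 FPKM.

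Of the small GTPases and active zone proteins, RIMS1 and RIMS2, the scaffolds that link RAB3 to priming and to calcium channels, kept a level of the same order in all libraries. RIMS2 (chromosome 14, 21215837 to 21817751) was at 53.8, 72.8, 62.9, 98.9 and 87.5 FPKM at D1 and at 171, 62.2, 51.3, 128 and 105 FPKM at M2. The M4 libraries held 96.5, 130, 72.8, 68.4 and 75.9 FPKM and the M6 libraries 88.6, 115, 82.4, 132 and 68.5 FPKM. M2 replicate 1, low in most members, was the highest of all 20 libraries for RIMS2, and M6 replicate 3, at 82.4 FPKM, lay within its stage. Later vs. D1 gave a log2 fold change of 0.32 (95% interval -0.18 to 0.82, adjusted p = 0.623 from limma).

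RIMS1 (chromosome 14, 92756365 to 93355995) was at 21.4, 26.9, 26.6, 55.4 and 29.3 FPKM at D1 and at 54.2, 29.5, 33.8, 39.4 and 38 FPKM at M2. At M4 it was at 55.4, 61.5, 24.6, 37.5 and 37.6 FPKM, and at M6 at 28.6, 65.5, 39.8, 28.3 and 27.9 FPKM. All M2 libraries were above 4 of the 5 D1 libraries, and the fifth, D1 replicate 4, was above all of M2. The later stages were above D1 by a log2 fold change of 0.35 (95% interval -0.15 to 0.84, adjusted p = 0.583 from limma).

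RAB3A, the main RAB3 of synaptic vesicles, had D1 libraries close to each other, at 54.7 ± 5.34 FPKM (SD, n = 5), against 46.5 ± 23.7 for M2, 54.5 ± 32.4 for M4 and 31.6 ± 16.2 for M6. Its M6 libraries, at 29.3, 33.4, 5.48, 43.3 and 46.6 FPKM, all lay below its D1 libraries, at 53.6, 53.7, 62.0, 56.8 and 47.3 FPKM. RAB3A was the 1 member of 38 whose M6 and D1 libraries did not overlap, and 2.84% of all genes tested had no overlap there. Its log2 fold change there was -1.09 (standard error 0.57, adjusted p = 0.708 from limma). RAB3C had stage means of 50.6 to 114 FPKM and in M6 vs. D1 a log2 fold change of -1.10 (standard error 0.51, adjusted p = 0.651 from limma). RAB3B, a form found in some neurons and endocrine cells, was at 91.5 FPKM in M4 replicate 2 and at 1.40 to 27.9 FPKM elsewhere. The scaffolds PCLO, BSN and ERC2 had D1 means of 9.85 ± 2.35, 2.10 ± 0.860 and 16.8 ± 5.66 FPKM, and ERC2 was at 71.8 and 41.6 FPKM in M4 replicates 1 and 2 but under 27 FPKM in all other libraries.

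Among the priming and clamping proteins, UNC13B, a priming factor of some synapses and of secretory cells (chromosome 8, 59176899 to 59396050), had 12.1, 8.52, 7.92, 3.94 and 8.65 FPKM at D1 and 14.5, 6.97, 9.75, 6.96 and 12 FPKM at M2. It had 10.4, 7.26, 9.75, 14.8 and 10.6 FPKM at M4 and 10.4, 6.64, 9.58, 11.2 and 10.2 FPKM at M6. The lowest of the 20 was D1 replicate 4, and M6 replicate 3, at 9.58 FPKM, was within its stage. In later vs. D1 the log2 fold change was 0.33 (95% interval -0.13 to 0.80, adjusted p = 0.573 from limma). UNC13A, the priming factor of most forebrain synapses, was at 0.892 FPKM in M6 replicate 3 and at 14.7 and 13.8 FPKM in M4 replicates 1 and 2.

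The complexins, which clamp the assembled SNAREs until calcium arrives, had later vs. D1 log2 fold changes of opposite sign, -0.77 in CPLX2 and 0.64 in CPLX1, and neither passed the test. CPLX2 (chromosome 10, 95863371 to 95952594) was at 55.6, 57.5, 32.4, 175 and 35.6 FPKM at D1 and at 16.4, 63.1, 31.5, 101 and 49.2 FPKM at M2. At M4 it was at 161, 15.9, 35.1, 29.9 and 51.5 FPKM, and at M6 at 35.2, 73.5, 1.10, 25.9 and 50.9 FPKM. The highest libraries of D1, M2, M4 and M6 were those with high DRD1 or SLC17A7, and CPLX2 had the largest within-stage SD of the 38 genes, 1.51 on the log2 scale. Its later vs. D1 interval ran from -2.22 to 0.69 (adjusted p = 0.690 from limma).

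CPLX1 (chromosome 6, 117359637 to 117405415), described here because its values stood apart once seen, was at 2.89, 4.37, 3.99, 1.81 and 1.93 FPKM at D1 and at 10.2, 5.43, 9.76, 6.14 and 5.55 FPKM at M2. At M4 it was at 5.39, 11.5, 9.09, 2.68 and 4.34 FPKM. At M6 it was at 5.02, 3.51, 4.96 and 5.26 FPKM in replicates 1, 2, 4 and 5 and was listed at 0 in replicate 3. Every M2 library was higher than every D1 library, and every M2 library was also higher than every M6 library. CPLX1 was the 1 member of 38 without overlap in M2 vs. D1 (3.82% of all genes tested) and the 1 member in M6 vs. M2 (0.757%), and 0 members had no overlap in M4 vs. D1 (1.93%), M4 vs. M2 (1.09%) or M6 vs. M4 (0.775%). M2 was above D1 by 1.31 on the log2 scale (standard error 0.78, adjusted p = 0.417 from limma). Because the fit pooled the spread of the 4 stages, the library listed at 0 entered this standard error. Without M6 replicate 3 the fold change was the same, with a standard error of 0.35 (adjusted p = 0.138 from limma), and with the D1 and M2 libraries alone the standard error was 0.31 (adjusted p = 0.172). The highest M2 value was in M2 replicate 1, and without that library the fold change was 1.18 (standard error 0.85, adjusted p = 0.714). That fit still held the library listed at 0. Without both M2 replicate 1 and M6 replicate 3 the fold change was 1.18 (standard error 0.37, adjusted p = 0.410 from limma). With the neuron marker level as a covariate it was 1.72 (standard error 0.58, adjusted p = 0.223 from limma). The difference thus did not pass the correction over all genes in any of these fits.

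Of the genes of endocytosis and acidification, ATP6V0A1, a membrane subunit of the proton pump (chromosome 19, 42196794 to 42255068), was at 36.0, 32.5, 33.8, 24.0 and 22.7 FPKM at D1 and at 19.9, 32.1, 22.5, 28.1 and 30.0 FPKM at M2. It was at 23.2, 41.8, 31.7, 33 and 32.8 FPKM at M4 and at 26.1, 22.2, 10.4, 32 and 35.4 FPKM at M6. The stages overlapped, and M6 replicate 3 was the only library under 19 FPKM. Later vs. D1 gave a log2 fold change of -0.12 (95% interval -0.58 to 0.33, adjusted p = 0.857 from limma). SYNJ1, a lipid phosphatase that uncoats vesicles, had the smallest within-stage SD of the 38 genes, 0.32 on the log2 scale, with stage means of 18.2 to 24.3 FPKM and a later vs. D1 interval of -0.38 to 0.34. DNM1, the neuronal dynamin that cuts vesicles free, and AMPH, which recruits it, were at 69.0 FPKM in M4 replicate 1 and at 46.5 FPKM in M4 replicate 2, each the highest value of its gene.

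**Figure D3:**
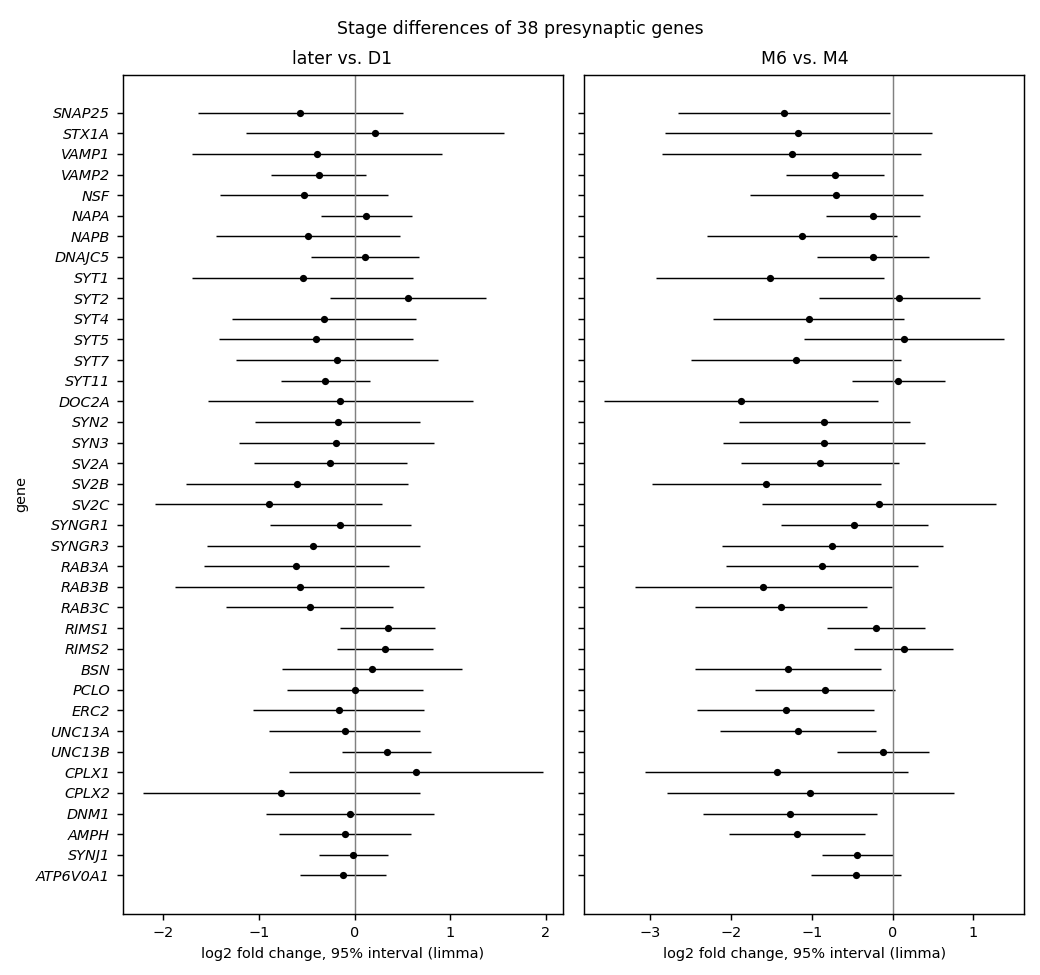
Log2 fold change with its 95% interval (limma, on log2(FPKM + 0.1)) of each of the 38 genes in later vs. D1 (left) and in M6 vs. M4 (right). On the left all 38 intervals cross 0, and on the right 34 genes are below 0 and the intervals of 12 of them do not reach it.

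In M6 vs. M4 the 12 members with an unadjusted p under 0.05 were all lower at M6, and they came from every role: SNAP25, VAMP2, SYT1, DOC2A, SV2B, RAB3B, RAB3C, BSN, ERC2, UNC13A, DNM1 and AMPH. Their log2 fold changes ran from -1.87 in DOC2A to -0.71 in VAMP2, and their adjusted p from 0.7 to 0.725 in limma. The median over the 38 members was -0.88, against 0.04 over all genes tested. The count and the M6 end of the median depended on single libraries. Without M6 replicate 3, 1 member had a p under 0.05, as did 4.03% of all genes, and the median was -0.33. Without M4 replicate 1 the count was 4 (4.76% of all genes) and without M4 replicate 2 it was 6 (5.09%), and each time the median was -0.74 and 34 of the 38 were lower at M6. Leaving out some other libraries raised the count, most of all to 18 without M6 replicate 4 (9.21%), 16 without M6 replicate 5 (7.19%) and 16 without M4 replicate 4 (8.15%). It fell to 10 without D1 replicate 1, 2, 3 or 5, where 1071 to 1103 of the 16771 genes tested had such a p. In the other comparisons the median over the members was -0.17 in M2 vs. D1, 0.23 in M4 vs. D1 and -0.72 in M6 vs. D1. M4 vs. M2 had a median of 0.31, M6 vs. M2 of -0.52 and later vs. D1 of -0.18, while the median of all genes stayed between -0.07 and 0.02. The median of M6 vs. D1 was -0.23 and that of M6 vs. M2 was -0.03 without M6 replicate 3, that of M2 vs. D1 was 0.04 without M2 replicate 1, and that of M4 vs. D1 was 0.07 without M4 replicate 1.

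The spread between goats of one age was large in these genes. The within-stage SD of log2(FPKM + 0.1) had a median of 0.91 over the 38 members and of 0.57 over all genes tested. In 14 members it was larger than the range of the 4 stage means. The SD is of single libraries and the range of means of 5, so these are unlike measures. The share of all genes is not given for this count, and nothing is concluded from it. M6 replicate 3 was the lowest library for 29 of the 38 genes. The margin was small for SYNGR3, where the next lowest library was at 1.05 times its value. Against the median of the other M6 libraries, 31 members were more than 1 lower in M6 replicate 3 on the log2 scale, as were 19.5% of all genes tested. M2 replicate 1 was more than 1 lower for 19 members (13.6% of all genes). M4 replicates 1 and 2 were more than 1 higher for 18 members (12.3%) and 15 members (12.8%), and M4 replicate 1 was the highest of all libraries for 11 members and M4 replicate 2 for 14. The share of all genes is not given for these counts of lowest and highest libraries. In whole tissue, fewer neurons in a sample and less RNA per neuron cannot be told apart.

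Not all members were low in the libraries of low neuron markers, and neither were all the markers. MAP2, at 246 FPKM in M2 replicate 1, was the highest of the M2 libraries. RBFOX3, at 0.880 FPKM in M6 replicate 3, lay within its stage. Each of the other markers was the lowest of its stage in these libraries. In M6 replicate 3, VAMP1 was at 2.34% of the median of the other M6 libraries, CPLX2 at 2.55%, SYT1 at 7.34% and SNAP25 at 10.4%. RIMS1, SYT11 and SYT2 were at 140%, 138% and 118% of that median in the same library, and NAPA, UNC13B and RIMS2 at 95.1%, 92.6% and 80.7%. In M2 replicate 1 SNAP25 was at 15.3% and SYT1 at 20.3% of the other M2 libraries, while RIMS2, SYT2, CPLX1, UNC13B, NAPA and RIMS1 were at 205%, 195%, 174%, 174%, 160% and 151%. CPLX1 was thus high in M2 replicate 1 and listed at 0 in M6 replicate 3. SYT11 was at 37.8% in M2 replicate 1, so it went with SNAP25 in that library and against it in M6 replicate 3.

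The level of each member was therefore set against that of the 10 neuron markers over the 20 libraries. Pearson's r was positive in 34 members and at least 0.7 in 23, with a median of 0.76, against a median of 0.05 over all genes tested. At an adjusted p under 0.05 from 100000 permutations, corrected over all 16771 genes, 22 members had a positive r (3.85% of all genes) and 8 a positive Spearman's rho (1.31%). Much of this rested on the libraries farthest in neuron markers, M6 replicate 3 and M2 replicate 1. Without these 2 libraries the median r was 0.44, and 1 member, SV2A, had an adjusted p under 0.05 (0.155% of all genes). SV2A had an r of 0.98 (permutation p = 1e-05, the smallest these permutations can give, adjusted p = 0.00270) and a rho of 0.93 (adjusted p = 0.00559), and an r of 0.87 without the 2 libraries (adjusted p = 0.0168). With each value set against its stage mean, and with these 2 libraries kept, the median r of the members was 0.74. Within the single stages, of 5 libraries each, r was positive in all 4 stages for 17 of the 38 members.

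The 6 members with an r under 0.2 were RIMS1 (r = -0.22, rho = -0.26), RIMS2 (r = -0.19, rho = -0.11), UNC13B (r = -0.14, rho = -0.05), SYT2 (r = -0.11, rho = -0.05), NAPA (r = 0.10, rho = 0.31) and SYT11 (r = 0.17, rho = 0.08), and the smallest permutation adjusted p among them was 0.513. The next were SYT5 (r = 0.36, permutation adjusted p = 0.339) and STX1A (r = 0.45, permutation adjusted p = 0.255), and in all 16 members did not pass for r and 30 not for rho. SYNJ1, CPLX2, SV2C and CPLX1 had an r of 0.60, 0.71, 0.58 and 0.66 but a rho of 0.18, 0.21, 0.25 and 0.27, below that of NAPA. Without M6 replicate 3 and M2 replicate 1, r was -0.08 in RIMS1, 0.05 in RIMS2, 0.12 in UNC13B, 0.17 in SYT2, 0.34 in NAPA and 0.15 in SYT11. In those 18 libraries r was -0.07 in CPLX2, -0.03 in DNAJC5, -0.01 in SV2C, 0.01 in SYNJ1 and 0.07 in SYN3. The 6 were thus not a set apart there. Of the 6, NAPA and UNC13B are also known from non-neuronal cells and SYT11 from glia. RIMS1 and RIMS2 are scaffolds of the active zone and SYT2 is a calcium sensor. Whether this bears on their r was not tested. When the neuron marker level was entered as a covariate in limma, a fit added after the data were seen, 0 of 38 members were called in any comparison, and the median of M6 vs. M4 was -0.22 with 0 members at an unadjusted p under 0.05 (3.56% of all genes).

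**Figure D4:**
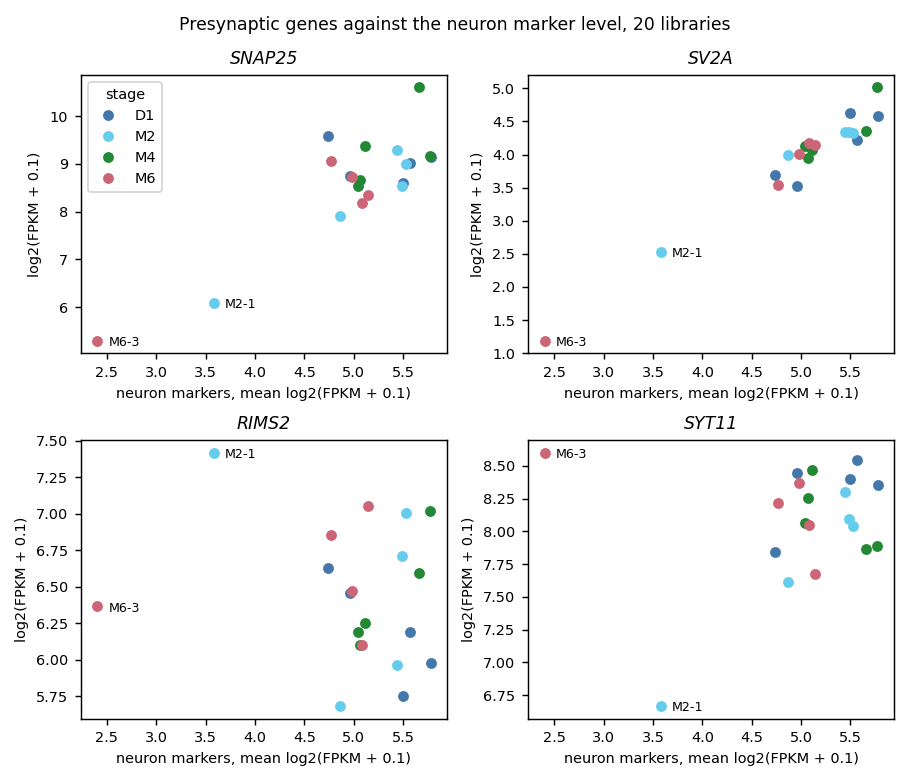
Level of SNAP25, SV2A, RIMS2 and SYT11 (log2(FPKM + 0.1)) against the mean log2(FPKM + 0.1) of the 10 neuron markers, with a point per library coloured by stage. SV2A follows the markers over all 20 libraries (r = 0.98), SNAP25 mainly through M6-3 and M2-1 (r = 0.86, and 0.35 without them), and RIMS2 and SYT11 do not (r = -0.19 and 0.17).

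A change in the proportion of related genes can be read within each library, where the scaling of the library cancels. For 14 pairs of related members the log2 ratio was compared between the 5 D1 and the 15 later libraries with a two-sided exact permutation test. No pair differed at an adjusted p under 0.05, and none at an unadjusted p under 0.05. The closest was CPLX1 to CPLX2, with a mean log2 ratio of -4.31 ± 1.33 (SD, n = 5) at D1, -2.60 ± 1.38 for M2, -2.85 ± 1.69 for M4 and -3.27 ± 0.76 for M6. The difference of later stages from D1 was 1.40 (exact permutation p = 0.0501, adjusted p = 0.701), and 6 of the 15 later libraries were above all D1 libraries. SYT2 to SYT1 had a mean log2 ratio of -6.65 ± 1.34 (SD, n = 5) at D1 and -5.55 ± 1.90 (SD, n = 15) later (exact permutation p = 0.259, adjusted p = 0.971). Its 2 ends were single libraries, -9.44 in M4 replicate 1 and -2.29 in M6 replicate 3.

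The order of related genes was stable for some pairs and not for others. VAMP2 exceeded VAMP1, SYT1 exceeded SYT2, SYT11 exceeded SYT4 and CPLX2 exceeded CPLX1 in all 20 libraries. RIMS2 exceeded RIMS1, PCLO exceeded BSN and NAPB exceeded NAPA in all 20 libraries too, and RAB3C exceeded RAB3A in 19. SV2C and SV2A exchanged their order, with SV2C higher in 10 libraries and SV2A in 10, and SYNGR3 was above SYNGR1 in 11. UNC13B exceeded UNC13A in 15 libraries. The ratio of SV2C to SV2A was highest in D1 replicate 4, at 1.76 on the log2 scale, and lowest in M4 replicate 2, at -2.45.

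**Figure D5:**
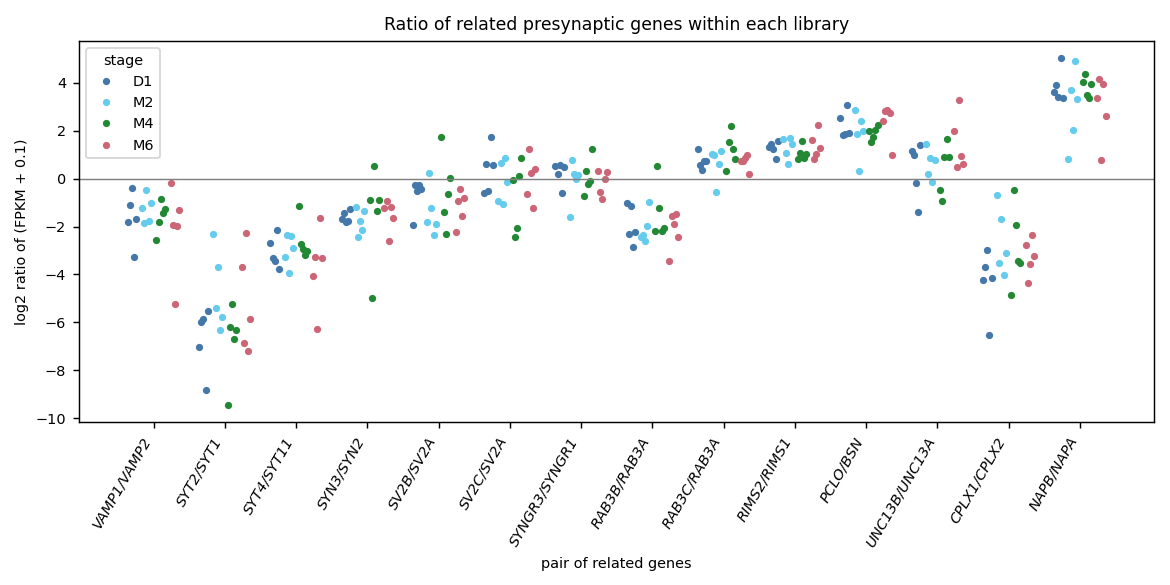
Log2 ratio of (FPKM + 0.1) of 14 pairs of related members within each library, with a point per library coloured by stage. The stages overlap for every pair, CPLX1/CPLX2 lies lowest at D1 with a mean of -4.31, and single libraries form the ends of SYT2/SYT1, SYN3/SYN2 and VAMP1/VAMP2.

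A wider list of 90 presynaptic genes, such as SYN1, SYP, the clathrin adaptors, further proton pump subunits and neurexins, held 89 genes of the table, of which 88 were tested. None was called in any of the 7 comparisons by limma. At an unadjusted p under 0.05, 3 of the 88 were higher and 8 lower in M2 vs. D1 (15.6% of all genes in either direction), 2 higher and 3 lower in M4 vs. D1 (8.71%), and 1 higher and 5 lower in M6 vs. D1 (7.41%). For M4 vs. M2 the counts were 4 and 0 (8.68%), for M6 vs. M2 they were 1 and 3 (6.14%), and for later vs. D1 they were 2 and 3 (11.7%). In M6 vs. M4, 1 was higher and 13 lower (6.87%), with a median log2 fold change of -0.43. The smallest adjusted p was 0.204, for PICALM, a clathrin adaptor, in M2 vs. D1. Without M6 replicate 3, 1 was higher and 3 were lower in M6 vs. M4 (median -0.21), without M4 replicate 1 the counts were 0 and 8 (median -0.26), without M4 replicate 2 they were 0 and 5 (median -0.30), and without M6 replicate 4 they were 2 and 20 (median -0.52).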

How the data were processed

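RNA of the hypothalamus of 20 goats was sequenced by the authors as strand-specific libraries depleted of rRNA. Per the labels and the methods of the study, the authors trimmed reads with fastp, aligned them with HISAT2 2.0.5 to the goat genome ARS1.2 and calculated FPKM with StringTie 1.3.3b, and these FPKM values are the deposited data. The study gives read totals per library, but the values used here are FPKM and not reads per gene, so no counting error is given, and precision comes from the spread between goats. Summed FPKM was between 260199 and 377479 per library, and a single gene, KLHDC1, made up 23.9% of it in M2 replicate 3 and 9.83% in M6 replicate 3.

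Gene IDs were matched to symbols and positions by the RefSeq annotation of the same build, which named 20610 of 21071 genes. Genes reaching 0.1 FPKM in 5 or more libraries, 16771 in all, were fitted on log2(FPKM + 0.1) with limma 3.58.1 in R 4.3.3, with a trend, the 4 stages as groups and no block. Fold changes on this scale understate those of low genes. The Benjamini-Hochberg adjustment ran over all of these genes in each comparison, and the procedure was tested on simulated data. Pairs of related genes were compared with exact permutation tests and levels with 100000 permutations in Python 3.11.15 with scipy 1.17.1. The members, marker lists and lists of pairs were chosen with earlier results of these data known. Values of every library are given for the member with the smallest p in later vs. D1 and the most abundant member of each role. CPLX1 and RAB3A were added after their values were seen. Every library was kept. Each replicate was a separate goat. The alternatives were another pseudocount, other filters, fits of the groups compared only, quantile normalization, median-ratio scaling, no trend, library quality weights, a replicate block, and leaving out each library. Fits without the libraries that stood apart, and with the neuron marker level as a covariate, were added after the data were seen.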

Additional observations from a re-analysis of the deposited data

Results flagged for a closer look

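In a group of 5 libraries, a library was singled out where its gap to the nearest other library, on the log2 scale, took up more of the range of the group than Dixon's 95% critical value allows. Of 152 combinations of a gene and a stage, 26 were singled out. Chance does so in about 1 in 20 groups of normal values. Genes of one library are not independent, and the share of all genes is not given, so nothing is concluded from this count. Most were in the libraries that stood apart in neuron markers or in SLC17A7.

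M6 replicate 3 was singled out as a low library in 11 genes, and it was the lowest of its stage in 30 of the 38. It was at 39.2 FPKM for SNAP25, 0.375 for VAMP1, 5.64 for NAPB, 0.157 for SYN3, 2.18 for SV2A, 5.48 for RAB3A, 10.2 for RAB3C, 1.10 for CPLX2 and 2.17 for DNM1, and DOC2A and CPLX1 were listed at 0 there. M2 replicate 1 was singled out as low in 6 genes and was the lowest of its stage in 27, and in the 6 genes it was at 0.996 FPKM for SYT7, 5.66 for SV2A, 6.39 for SYNGR1, 2.02 for SYNGR3, 8.49 for RAB3A and 14.4 for DNM1. For the counts of the lowest library of a stage, too, the share of all genes is not given.

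M4 replicate 1 was the highest of its stage for NAPA at 7.28 FPKM, SYT1 at 569 FPKM and SYT4 at 105 FPKM, and M4 replicate 2 was the highest for VAMP2 at 85.5 FPKM. At D1, replicate 5 was low for SYT1 at 60.5 FPKM, and replicate 4 was low for SYT11 at 230 FPKM and high for SYNJ1 at 30.2 FPKM. M2 replicate 3 was low for PCLO at 5.60 FPKM, and M6 replicate 5 was high for NAPA at 7.30 FPKM.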

How the results depend on the processing

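Under 32 other settings of the limma fit, 0 of the 38 members passed the thresholds in any comparison, also by the adjusted p alone, and the smallest adjusted p was 0.0791, in M6 vs. D1 with library quality weights. Those weights raised the calls over all genes from 0 to 148 in M2 vs. D1, from 9 to 65 in M4 vs. D1, from 1 to 95 in M6 vs. D1 and from 10 to 223 in later vs. D1. The counts of called members and pairs and the median log2 fold changes of the members were compared with the main fit. A median was taken as kept if it moved by less than the spread between libraries, 0.67 on the log2 scale. By this rule 472 values were kept. They include the counts of called members, which were 0 in every fit. Most of the medians were smaller than that spread, so a median could change sign and still be kept. The total of 472 therefore says little about how stable the medians were. With library quality weights the median moved from -0.17 to 0.03 in M2 vs. D1, from 0.23 to 0.01 in M4 vs. D1 and from 0.31 to -0.004 in M4 vs. M2. The 1 median that moved by more than the spread was that of M6 vs. D1, from -0.72 to 0.0105 with the neuron marker level as a covariate. The count of members at an unadjusted p under 0.05 was not among these values and was less stable, running in M6 vs. M4 from 1 to 18 when a library was left out. Leaving out each library in turn, the median ran from -0.29 to 0.04 in M2 vs. D1, 0.07 to 0.30 in M4 vs. D1, -0.90 to -0.23 in M6 vs. D1, 0.19 to 0.44 in M4 vs. M2, -0.79 to -0.03 in M6 vs. M2, -1.10 to -0.33 in M6 vs. M4 and -0.35 to -0.03 in later vs. D1. Among the single genes in later vs. D1, 76 of 1178 values changed sign, and none was called. The cause of these moves was not tested. With the replicate number as a block, 0 members were called, the median of M6 vs. M4 was again -0.88 and 14 members had an unadjusted p under 0.05 there. The deviations of libraries of the same number had a median correlation of -0.01 over 30 pairs (-0.25 to 0.43). For libraries of different numbers it was 0.004 over 120 pairs (-0.36 to 0.42). Libraries of the same number were thus no more alike in the median, and a shared batch was not tested. The FPKM values limit what can be said of members under 1 FPKM, such as STX1A, since no read count per gene was used.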
